A study of Mus musculus with 6 samples.

Results

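The Hedgehog genes examined here are the 3 ligands Shh, Ihh and Dhh, the receptor Ptch1, the transducer Smo, the Gli inhibitor Sufu and the transcription factors Gli1, Gli2 and Gli3. They were selected by gene name: every non-control probe that the array files assign to one of these 9 names was taken, which gave 12 probes on 21 spots, of 39429 probes on 43020 spots in all. The 6 one-colour arrays formed 2 groups of 3 arrays, and each array is called here by its label. The study describes 3 independent mice per group and isolation at 3 independent times. The labels do not say how mice and isolations map to single arrays. The 2T-WT group held LSK-SLAM cells (Lin- c-Kit+ Sca+ CD150+ CD48-, a gate for blood stem cells) sorted from the bone marrow of secondary recipients (2T) whose graft descended from wild-type fetal liver, and the 2T-p190-B-/- group held the same gate from recipients whose graft descended from p190-B-/- fetal liver. In both groups the CD45.2 fetal liver cells, of a C57BL/6J background, were first given with CD45.1 competitor marrow to lethally irradiated congenic mice, and marrow of those mice was passed to the secondary recipients. The sort described with the samples names no CD45.2 gate, so the share of competitor or host cells in each sample is unknown. RNA was amplified as cDNA before labelling with Cy3.

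In Hedgehog signalling, a secreted ligand binds Ptch1 on the receiving cell, which releases Smo from inhibition. Smo, acting at the primary cilium, then frees the Gli proteins from Sufu, and Gli1 and Ptch1 are themselves induced, so both are widely used as readouts of the pathway. The pathway is best known from embryonic patterning; its role in adult blood stem cells has been debated.

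Of the 12 probes, 5 were measured, meaning well above background on 3 arrays or more, and these 5 belong to Ihh, Ptch1, Smo and Sufu. The probes for Dhh, Gli2 and Gli3 and the dimmer of 2 Ptch1 probes were well above background on no array, and those for Shh and Gli1 and the dimmer of 2 Sufu probes were so on 1 array each. After each array was divided by its own 75th percentile, all 5 measured probes were lower on average in 2T-p190-B-/-, by 0.31 to 1.59 on the log2 scale. So were 60.7% of all tested probes. The direction turned for 4 of the 5 Hedgehog probes without that division. By limma, none passed an adjusted threshold, nor did any of the 25127 probes tested, of which 1654 had an unadjusted p under 0.05.

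The probes themselves bear on how these values can be read, so a stretch of 30 bases is shown for 6 of the 12. Capitals mark a part that the text describes. All positions are those the array files give in mouse build mm9. No gene models of that build were used here, so exon and untranslated region are not given. The brighter Smo probe is made for transcript NM_176996 at chr6:29710919-29710978 on the plus strand, and its capitals mark a run of 13 alternating A and C bases. The dimmer Smo probe lies 306 bases further along the same transcript, at chr6:29711225-29711284, and holds no such run. In the Gli1 probe, at chr10:126766967-126767026 on the minus strand, the capitals mark 23 bases that are the complement of a stretch in the probe for Arhgap9. In the Ihh probe, at chr1:74991906-74991965 on the minus strand, they mark AATAAA, the hexamer known as a polyadenylation signal, which the Dhh and Gli3 probes also hold. The Shh probe lies at chr5:28783983-28784042 on the minus strand. The dimmer Ptch1 probe, at chr13:63610298-63610357 on the minus strand, has a GC content of 21.7%, against 53.3% for the brighter one at chr13:63612879-63612938.
Smo, brighter: acacacagACACACACACACAtacactctc
Smo, dimmer: aatgtctagtcattttcatagtgccccaca
Gli1: gaaagaaCAAACTTTAATAATGACACAGTT
Ihh: atgttttggtctttcttttgtAATAAAaat
Shh: aatttattattgtgtgaactgtactcacag
Ptch1, dimmer: catttggatgttttaatttgtaaaagaaaa

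Several properties of the whole arrays touch every value below. Between 48.4% and 73.1% of all probes were well above background on an array, and the 75th percentile of signal, by which each array was scaled, lay at 53.9 to 227 in 2T-WT and at 252 to 385 in 2T-p190-B-/-. The scaled difference had a median of -0.33 over all probes tested, and the unscaled one a median of 1.12. 2T-WT replicate 1 lay alone on slide 1 and 2T-p190-B-/- replicate 3 alone on slide 3, while slide 2 held the other 4 arrays. The probe for the deleted gene Arhgap5, which encodes p190-B, was well above background only on the array labelled 2T-p190-B-/- replicate 2, at a signal of 49.0 against 2.49 to 8.73 on the other 5, so it gives no check of the genotypes. Of 10 stem cell markers on the arrays, 5 were well above background on all 6, and the CD150 gene Slamf1 and Procr on none. The summed level of the 9 with a value on every array, which leaves out Hlf, ran from 2.68 to 3.20 in 2T-WT and from 2.70 to 4.81 in 2T-p190-B-/- (log2, scaled). Of the 7 markers of cells that the sort removes, 4 were well above background on all 6 arrays (Cd48, Itgam, Cd3e and Cd5). Itgam was so on a probe with a run of 20 alternating bases, a kind of probe described below with Smo. How much of that signal comes from Itgam RNA was not tested. The summed level of the 6 other markers, leaving out this Itgam probe, ran from 2.72 to 3.90 in 2T-WT and from 2.27 to 3.26 in 2T-p190-B-/- (log2, scaled). Of 8 stroma, 4 endothelial and 5 red cell markers, 4, 1 and 2 were well above background on all arrays, and Pdgfra, Pdgfrb and Hbb-b1 on none. Their summed levels ran from 1.29 to 2.85, 1.01 to 4.14 and -0.06 to 1.86 in 2T-WT, and from 1.52 to 2.11, 0.37 to 1.95 and 0.91 to 1.34 in 2T-p190-B-/-. The part of these cells in the Hedgehog values was not tested. In such sorted bulk samples, fewer cells that express a gene and less of its RNA per cell cannot be told apart.

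**Figure D1:**
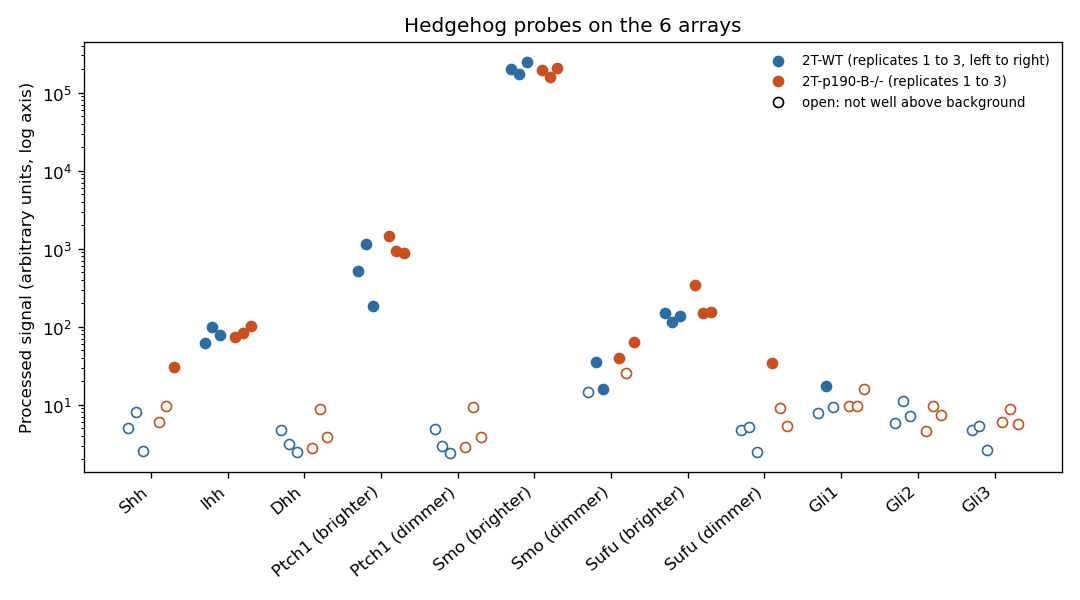
Processed signal (arbitrary units, log axis) of the 12 Hedgehog probes on the 6 arrays; each point is 1 array (2T-WT blue, 2T-p190-B-/- orange), and open points were not well above background. Only Ihh and the brighter probes of Ptch1, Smo and Sufu are filled on all arrays, and the brighter Smo probe sits between 161314 and 247954.

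Among the ligands, Ihh, which is best known for controlling cartilage growth, was the only one with a probe well above background on all 6 arrays. The wild-type arrays gave processed signals of 61.5, 100.2 and 77.8, and the deficient arrays 74.6, 84.2 and 102. These signals overlapped, and the highest was 1.66 times the lowest. Relative to each array's 75th percentile, the same signals became -1.02, -1.18 and 0.53 in 2T-WT and -2.37, -1.93 and -1.31 in 2T-p190-B-/- (log2), so all 3 deficient arrays lay below all 3 wild-type arrays, with 2T-WT replicate 3 far above the rest. The scaled mean was -0.56 ± 0.94 in 2T-WT and -1.87 ± 0.53 in 2T-p190-B-/- (SD, n = 3 each), a difference of -1.31, whereas without scaling the difference was 0.14.

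Shh, the ligand with the widest embryonic roles, is represented by 1 probe printed on 10 spots. Its mean signal was 5.06, 8.16 and 2.55 in 2T-WT and 6.11, 9.81 and 30.5 in 2T-p190-B-/-. On 2T-p190-B-/- replicate 3, the array alone on slide 3, all 9 spots kept were well above background, from 24.6 to 37.7. On the other 5 arrays none of the spots kept was, and their signals reached at most 11.3. Spots of 1 array share a sample, so these 9 spots are 1 measurement of 1 sample, and no fold is given between the genotypes. Dhh, the ligand known from testis and nerve sheath, was not well above background anywhere, with signals of 4.80, 3.12 and 2.49 in 2T-WT and 2.80, 8.96 and 3.86 in 2T-p190-B-/-.

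Ptch1, the receptor and a known Gli target, gave 526, 1167 and 182 in 2T-WT and 1444, 935 and 888 in 2T-p190-B-/- on its brighter probe. The signal was lowest on 2T-WT replicate 3 and highest on 2T-p190-B-/- replicate 1, and the groups overlapped. After scaling, the 6 arrays lay close together, at 2.08, 2.36 and 1.76 against 1.91, 1.54 and 1.82. The scaled difference of -0.31 (2.07 ± 0.30 against 1.76 ± 0.19, SD, n = 3 each) was close to the median of all probes, and without scaling it was 1.14. The dimmer Ptch1 probe, 2581 bases away, read 4.89, 2.99 and 2.44 in 2T-WT and 2.85, 9.27 and 3.85 in 2T-p190-B-/-, never well above background. Every difference given for Ptch1 comes from the brighter probe.

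Smo, the membrane protein that Ptch1 holds inactive, is represented by 2 probes. The brighter probe read 201815, 176254 and 247954 in 2T-WT and 195378, 161314 and 210162 in 2T-p190-B-/-, values that overlapped and differed by at most 1.54 times. It was brighter than 99.6% to 99.7% of all probes on every array. The dimmer probe read 14.4, 35.0 and 16.0 in 2T-WT and 39.7, 25.7 and 64.3 in 2T-p190-B-/- and was well above background on 2 arrays of each genotype.

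The brighter Smo probe carries the A and C run shown above, and such runs went with very bright spots in general. On the arrays, 163 probes (0.413% of all) hold at least 12 alternating A and C, or G and T, bases in a row. Their median signal lay between 192802 and 235792 on each array, against 13.1 to 72.4 for the other probes, and they made up 66 to 77 of the 100 brightest probes. The Smo values fell near that median on every array. An Itgam probe with a run of 20 such bases gave 10.68, 9.74 and 12.48 in 2T-WT and 8.97, 9.20 and 9.79 in 2T-p190-B-/- (log2, scaled), next to 10.66, 9.60 and 12.17 and 8.99, 8.97 and 9.70 for Smo. Itgam encodes CD11b, a myeloid surface protein that the lineage depletion is meant to remove. How much of the Smo signal comes from Smo RNA was not tested.

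**Figure D2:**
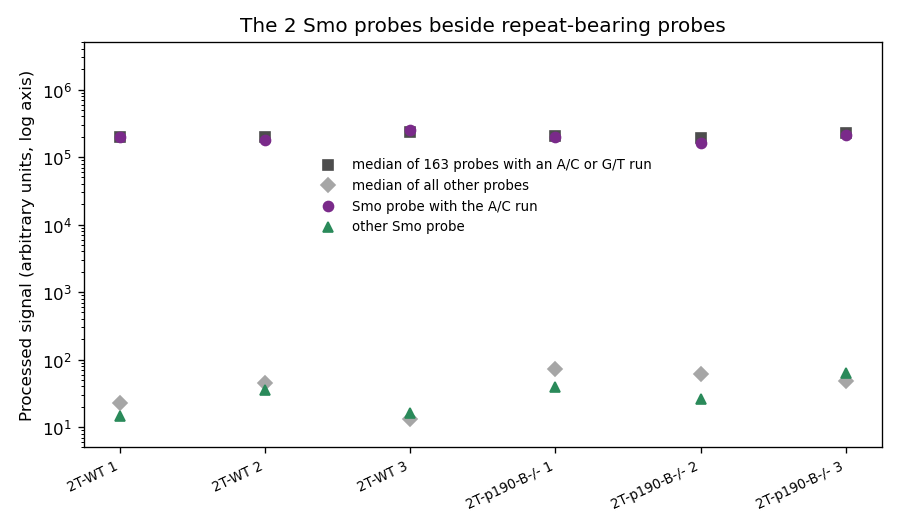
Processed signal (arbitrary units, log axis) of both Smo probes on each array, beside the median of the 163 probes that hold an alternating A/C or G/T run of at least 12 bases and the median of all other probes. The Smo probe with the run follows the first median, between 161314 and 247954, and the other Smo probe stays between 14.4 and 64.3, near the second.

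On the scaled log2 values, the brighter Smo probe had a mean of 10.81 ± 1.29 in 2T-WT and 9.22 ± 0.42 in 2T-p190-B-/- (SD, n = 3 each). Its difference of -1.59 was the largest of the 5 in size, and the groups overlapped, since 2T-WT replicate 2 lay below 2T-p190-B-/- replicate 3. Without scaling the difference was -0.14, and after quantile normalisation, which gives every array the same distribution of signal, it was -0.19. The dimmer Smo probe gave scaled values of -3.11, -2.70 and -1.76 in 2T-WT and -3.28, -3.64 and -1.97 in 2T-p190-B-/-, which overlapped. Its means were -2.52 ± 0.69 and -2.96 ± 0.88 (SD, n = 3 each), a difference of -0.44 scaled and 1.01 unscaled.

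Sufu, the cytoplasmic inhibitor that holds Gli proteins back, read 149, 117 and 139 in 2T-WT and 346, 149 and 157 in 2T-p190-B-/- on the brighter of its probes, at chr19:46529259-46529318. Without scaling, where 21.2% of all tested probes had no overlap in either direction, all 3 deficient arrays lay above all 3 wild-type arrays. The margin was narrow for 2T-p190-B-/- replicate 2, and the unscaled difference was 0.58. After scaling the order turned: the values were 0.26, -0.96 and 1.37 against -0.16, -1.11 and -0.68, the groups overlapped, and the means of 0.22 ± 1.16 and -0.65 ± 0.48 (SD, n = 3 each) differed by -0.87. The other Sufu probe, at chr19:46558091-46558150, was well above background only on 2T-p190-B-/- replicate 1, at 34.3, with 4.71, 5.21 and 2.47 in 2T-WT and 9.10 and 5.32 on the other deficient arrays. On both Sufu probes the highest unscaled signal was that of 2T-p190-B-/- replicate 1, the array with the highest 75th percentile. After scaling the brighter probe was highest on 2T-WT replicate 3 (1.37), and the other still on 2T-p190-B-/- replicate 1 (-3.49).

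The probes named for the Gli factors, through which the pathway changes transcription, were well above background on at most 1 array each. Gli1, an activator, read 7.98, 17.5 and 9.27 in 2T-WT and 9.72, 9.67 and 16.0 in 2T-p190-B-/-, and only 2T-WT replicate 2 was well above background. As with Shh, no fold is given, since 1 array measured it. Gli2, the main activator in many embryonic tissues, read 5.86, 11.2 and 7.24 in 2T-WT and 4.68, 9.58 and 7.33 in 2T-p190-B-/-. Gli3, which acts mostly as a repressor, read 4.77, 5.36 and 2.62 against 6.05, 8.92 and 5.72. Neither was well above background on any array, so no difference in Gli2 or Gli3 was detectable on these arrays, which does not show that the RNA is absent.

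The arrays hold further probes near these genes that the gene names did not include, and they are given here after their values were seen. A probe named by a transcript identifier (ENSMUST00000105252), described in the files as Gli1, lies at chr10:126775021-126775080 on the same strand as the Gli1 probe. It was well above background on all 6 arrays, at 829, 828 and 199.9 in 2T-WT and 929, 942 and 998 in 2T-p190-B-/-, with a difference of -0.56 scaled and 0.89 unscaled. A probe for 9530036O11Rik, a name that the RefSeq gene table lists as a synonym of Shh, lies at chr5:28807454-28807513 on the strand opposite to the Shh probe. Its signal was 770, 760 and 235 in 2T-WT and 2408, 3782 and 2685 in 2T-p190-B-/-, a difference of 1.04 scaled and 2.49 unscaled. The groups did not overlap on either scale, by a narrow margin after scaling. Of all tested probes, 16.3% scaled and 21.2% unscaled had no overlap in either direction. The scaled difference of this probe had a limma adjusted p of 0.640. The other probe of that name, 453023 bases away, moved the other way after scaling, by -1.40, with 208, 436 and 548 against 362, 285 and 537. These probes were not combined with Shh or Gli1.

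**Figure D3:**
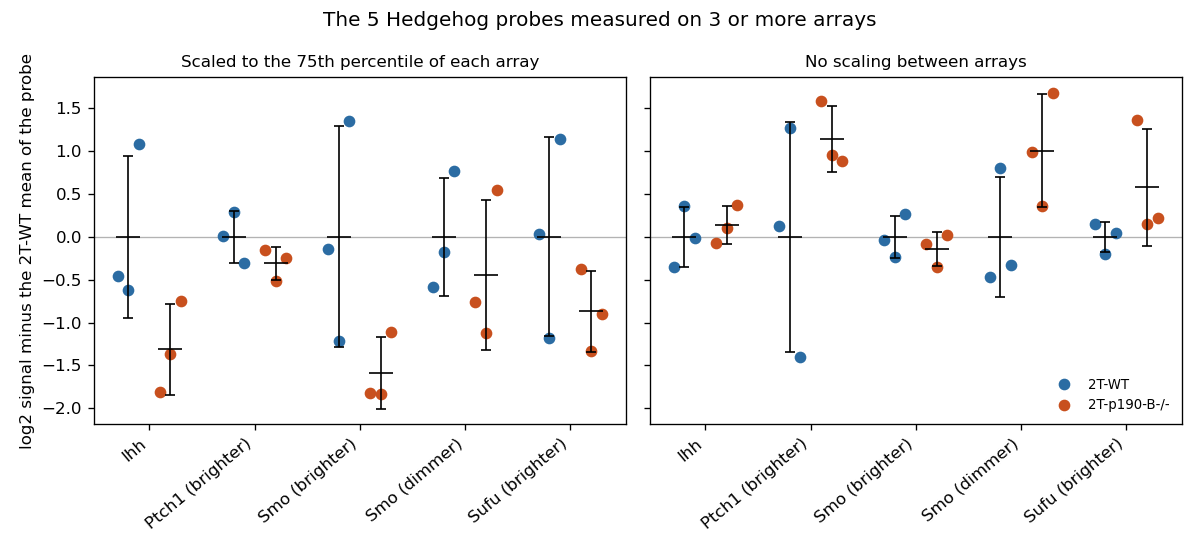
The 5 Hedgehog probes measured on at least 3 arrays, as log2 signal minus the 2T-WT mean of the probe, scaled to the 75th percentile of each array (left) or not scaled (right). Points are arrays, and black marks are the mean and SD of 3 arrays. After scaling all 5 deficient means lie below 0, by 0.31 to 1.59, where 60.7% of all tested probes were lower. Without scaling only that of the brighter Smo probe does, at -0.14, where 13.7% of all tested probes were lower.

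In counts, 5 of the 5 tested Hedgehog probes were lower in 2T-p190-B-/- after scaling, where 60.7% of all tested probes were. Without scaling the count was 1 of 5, the brighter Smo probe, and 13.7% of all probes were lower. Without scaling 1 of the 5, Sufu, had groups that did not overlap, with the deficient arrays higher, against 21.2% of all probes in either direction. After scaling 1 of the 5, Ihh, had no overlap, against 16.3% of all probes in either direction and 11.7% with the deficient arrays lower. None of the 5 had an unadjusted p under the threshold of 0.05 by limma or by the methods' t-test, against 6.58% and 7.1% of all probes (1654 and 1783 probes). The brighter Smo probe did have such a p in 2 of the alternatives, with an intensity trend and robust variance and without 2T-WT replicate 2, and no member did in the others with a test. None of the 25127 probes tested (0%) had an adjusted p under 0.05 by either of these tests. Because these genes were proposed with this contrast known, their own counts are a description and nothing is read from them.

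The sizes changed with the arrays used. Slide 2 alone leaves out 2T-WT replicate 1 and 2T-p190-B-/- replicate 3, so slide cannot be told apart from these samples. Among the 4 arrays of slide 2, the scaled differences were -1.82 for Ihh, -0.33 for Ptch1, -1.90 and -1.23 for the brighter and dimmer Smo probes and -0.84 for Sufu, and 3 of the 5 did not overlap, as did 46.3% of all probes with 2 arrays a side. Without 2T-WT replicate 3, which had the lowest 75th percentile of the 6 arrays, the differences were -0.77, -0.46, -0.91, -0.06 and -0.30 in the same order. Without 2T-WT replicate 2 they were -1.62, -0.16, -2.19, -0.53 and -1.46. With normexp background correction, Ptch1 was higher in 2T-p190-B-/-, by 0.34, and the other 4 probes stayed lower.

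For the 4 probes well above background on all 6 arrays, the probes of other genes with the most similar profile were found by Pearson r over the 6 scaled arrays, among 13751 probes. Ihh came closest to Gpr124 (r = 0.999), an unnamed probe and Wnt16. The brighter Smo probe came closest to Gm8827, F730047E07Rik and Galns (each r = 0.999 or above), whose longest runs of alternating bases were 10, 30 and 3. Ptch1 came closest to Bcorl1 (r = 0.989), an unnamed transcript and Ppib, and Sufu to Gm4489 (r = 0.998), Banp and Cwc22. All points share the 6 arrays and their scaling, and 1993 and 1979 probes had an r above 0.9 with Ihh and with Smo, against 60 with Ptch1 and 338 with Sufu. Without scaling the closest genes were others for Ihh (Bai1, Cir1, Det1), Smo (Arhgap26, Hivep3, Cd300a) and Ptch1 (Enpp7, Tas2r124, Mfap2), while Gm4489 was again the closest to Sufu (r = 0.989).

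Among 46 further genes of the pathway, each taken by its brightest measured probe, 36 were measured. After scaling, 2T-p190-B-/- was the lower group for 23 of them and the higher for 13. That is 63.9% lower, beside 61.4% of the 21679 genes measured on the arrays. Their median difference was -0.28, beside -0.35 for all genes. None passed limma's adjusted threshold. Gas1 and Ccnd1, both lower, had an unadjusted p under 0.05, where 3.39% of all genes were lower with such a p. In 5 genes all deficient arrays lay below all wild-type arrays, as in 12.1% of all genes, and in none did they all lie above. The count of lower genes was 18 after quantile normalisation, 31 after normexp correction and 6 without scaling. Of all probes tested, 54.1%, 69.1% and 13.7% were lower in these settings, in the same order.

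The other receptors and co-receptors showed 4 of 4 measured genes lower after scaling and 2 of 4 without it, of 5 listed, with a scaled median of -0.91. Gas1, a membrane-anchored co-receptor that helps ligand reach Ptch1, read 3.90, 1.43 and 2.70 in 2T-WT and 0.74, 1.15 and 0.41 in 2T-p190-B-/- (scaled log2), a difference of -1.91 ± 0.82 (SE; limma adjusted p = 0.638). Without scaling the mean of Gas1 was also lower, by -0.46, but the groups overlapped. Its unscaled signals were 1861, 612 and 350 in 2T-WT and 644, 709 and 335 in 2T-p190-B-/-, with 2T-WT replicate 1 far above the rest. Both of its tested probes were lower after scaling. Boc, a co-receptor of the immunoglobulin family, had almost the same unscaled signal everywhere. It read 3176, 3152 and 3247 in 2T-WT and 2990, 2829 and 3141 in 2T-p190-B-/-. By a narrow margin these groups did not overlap, where 21.2% of all tested probes had no overlap without scaling. The scaled Boc values of 4.67, 3.79 and 5.91 against 2.96, 3.14 and 3.64 also did not overlap, and the difference was -1.55 scaled and -0.10 unscaled. Hhip, which binds and sequesters ligand, and the co-receptor Cdon differed by -0.28 and -0.08 scaled and by 1.17 and 1.37 unscaled.

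Genes for ligand release were few, with 3 of 5 measured, 2 lower and 1 higher after scaling and 0 lower without it. Scube2, a secreted protein that helps free the ligand, differed by 0.62 scaled and 2.07 unscaled, and its 2 tested probes went opposite ways. Scube3 differed by -0.27 scaled and 1.18 unscaled, and Hhat, the acyltransferase that attaches palmitate to the ligand, by -0.07 and 1.39. Of the kinases, ubiquitin ligases and adaptors, 14 of 15 were measured and 8 were lower after scaling, 2 without it, with a scaled median of -0.37. Prkacb, a catalytic subunit of the protein kinase that primes Gli proteins for processing, gave -0.31, -0.33 and 1.08 against -2.05, -0.70 and -1.12, which did not overlap. Its difference was -1.44 scaled and 0.01 unscaled. Stk36, the kinase known as Fused, and Adrbk1, which phosphorylates Smo, differed by -1.74 and -1.66, with overlap, and by -0.29 and -0.21 without scaling.

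Of the genes for transport in the primary cilium, where Smo and Gli proteins gather, 7 of 9 were measured and 4 were lower after scaling, 1 without it, with a scaled median of -0.43. Evc2, a ciliary protein that binds Smo, gave -1.84, 0.21 and 0.15 against -2.04, -2.38 and -2.04, which did not overlap, and its difference was -1.66 scaled and -0.21 unscaled. Its partner Evc differed by -1.24 with overlap, and by 0.21 without scaling, and 1 of its 2 tested probes was lower. Rab23, a small GTPase that restrains the pathway, differed by 1.03 scaled and 2.48 unscaled on a probe well above background on 3 arrays.

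Of the genes that Gli factors are known to induce in other tissues, 8 of 12 were measured and 5 were lower after scaling, 1 without it, with a scaled median of -0.23. Ccnd1, the cell cycle gene of cyclin D1, gave -2.70, -2.65 and -1.20 against -4.40, -4.50 and -3.37, which did not overlap. Its difference was -1.91 ± 0.76 scaled (SE; limma adjusted p = 0.638) and -0.46 unscaled, on a dim probe that was well above background on 4 arrays. Nkx2-2, a neural patterning gene, differed by -1.06 scaled and 0.39 unscaled, and Foxl1, a gene of gut mesenchyme, by 1.05 scaled and 2.50 unscaled. Without scaling, Gas1, Boc, Stk36, Adrbk1, Evc2 and Ccnd1 were the 6 of the 36 that were lower in 2T-p190-B-/-.

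**Figure D4:**
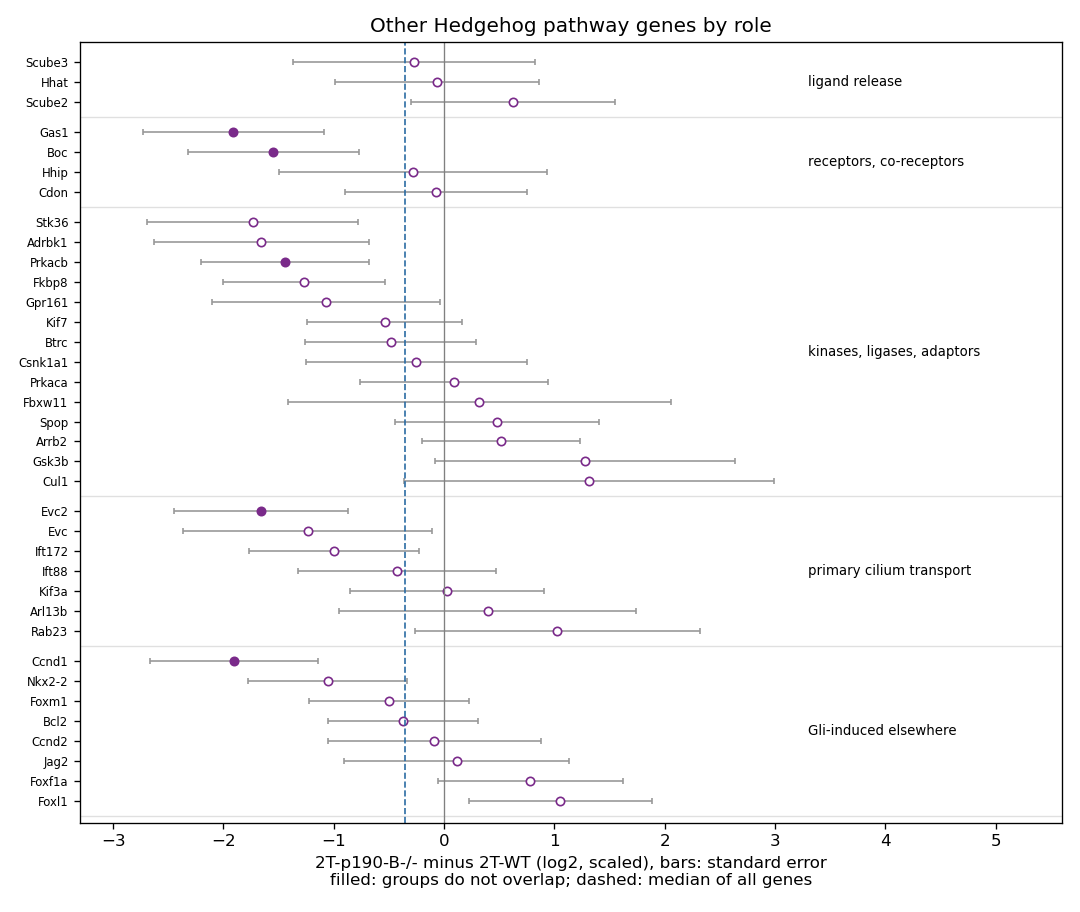
Difference of 2T-p190-B-/- minus 2T-WT (log2, scaled) with its standard error for the 36 further pathway genes measured, by role; filled points are the 5 genes whose groups do not overlap, and the dashed line is the median of all genes, -0.35. After scaling 23 genes lie below 0 and 13 above, and all 4 receptors and co-receptors lie below 0, while without scaling 6 of the 36 and 2 of these 4 do.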

How the data were processed

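The deposited Feature Extraction files (version 10.5.1.1 per the file headers) hold, for each one-colour array, the processed signal as an intensity, already background-subtracted by the scanner software. Control spots and outlier spots (296 to 509 an array) were left out; none was saturated. From the processed signal, each array was divided by the 75th percentile of its own signals, log2 was taken, and spots of a probe were averaged. The authors deposited a value table of the same arrays, in which each intensity was divided by a single constant for its array, near that array's median (largest deviation 0.00126%); it served as an alternative. A probe was well above background on an array where at least 0.5 of its kept spots carried that flag, and was tested where this held on at least 3 arrays. A signal that is not well above background is the software's value near the floor. Genotypes were compared with limma 3.58.1 (R 4.3.3) and Benjamini-Hochberg adjustment over all 25127 probes tested, and with the methods' t-test (two-sided, equal variance). The code was tested on simulated data.

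The study names 3 mice per genotype and isolation at 3 independent times, and the labels do not say how these map to arrays. The p-values measure the spread between the 3 arrays a genotype, and their number limits the precision. Labels gave the groups. The 9 genes, the list of further pathway genes and the marker lists were chosen with earlier results of these data known; some genes are not reported here. Of the further genes, the 3 with the largest difference in each role, and those without overlap, are named; for each of the 9 genes with a probe well above background on all arrays, the 3 most similar probes. Alternatives were another scaling, background correction, filter, source of values, slide or replicate number as a block, another variance model and each array left out; leaving out all scaling and slide 2 alone were added after the data were seen. Sequences and positions are those of the array files.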

Additional observations from a re-analysis of the deposited data

Results flagged for a closer look

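The Shh probe gave a signal of 30.5 on 2T-p190-B-/- replicate 3, well above background, while it was not so on any 2T-WT array, whose highest signal was 8.16. The second Sufu probe gave 34.3 on 2T-p190-B-/- replicate 1, well above background, against at most 5.21 on the 2T-WT arrays. Both probes fell outside the comparison because they were well above background on 1 array only. Each value comes from 1 array, and no test was made of either.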

How the results depend on the processing

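The count of member probes lower in 2T-p190-B-/- was 5 in the reported setting, where 60.7% of all probes were lower. It was 11 of 12 with no filter on dim probes, where 66.5% of all probes were lower. The 7 probes that this added were well above background on at most 1 array each. With no scaling between arrays it was 1 of 5, where 13.7% of all probes were lower. Leaving out single arrays kept the count at 5. Without scaling, the differences turned to 0.14 for Ihh, 1.14 for Ptch1, 1.01 for the dimmer Smo probe and 0.58 for Sufu, and normexp correction turned Ptch1 to 0.34 (the median over all probes moved from -0.33 to 1.12 without scaling). The count of members without overlap was 1, and became 3 of 12 with no filter, 3 of 5 on slide 2 alone and 1 to 3 of 5 with 1 array left out. Over all probes the share without overlap was 16.3%, and 15.1%, 46.3% and 23.4% to 32.8% in these settings. Without scaling the count was again 1, Sufu in place of Ihh, and the share over all probes was 21.2%. By limma, 1654 probes had an unadjusted p under 0.05 in the reported setting, 3625 after normexp correction and 3383 without scaling. Among the 13751 probes above background on all 6 arrays, 995 did. With 1 array left out, the count ran from 1069 (without 2T-p190-B-/- replicate 2) to 2442 (without 2T-WT replicate 2). The cause of these changes was not tested. The further pathway genes counted as lower were 23 of 36, and 6 of 36 without scaling, where 13.7% of all probes were lower. No setting gave an adjusted p under 0.05. Replicate numbers are shared between genotypes, and the labels do not say whether same-numbered arrays share a round of isolation. Deviations of same-numbered arrays correlated at 0.01, 0.02 and 0.09, and those of differently numbered arrays at -0.08 to 0.07. With 3 arrays a genotype, these values cannot decide whether the numbers pair the arrays. With the replicate number as a block, 1872 probes had an unadjusted p under 0.05 by limma. The member counts were then 5 lower and 1 without overlap. The 3 arrays a genotype, and signals near background for 7 of the 12 probes, limit what can be seen.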
